A study of Rattus norvegicus with 12 samples.

Results

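The genes described here were 34 members of the ATF4 network: the stress transcription factors around ATF4, genes known as its targets, and the enzymes and transporters of amino acid metabolism that it controls in mammalian cells. Each member was read from the array feature (transcript cluster) that carries its symbol alone and has the highest mean over the 12 arrays, among 22093 genes that could be named in this way. All 34 members were on the array. A filter on low values kept 33 of them, and the cationic amino acid transporter Slc7a3 fell under it.

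The samples were PC12 cells, a line from a rat adrenal phaeochromocytoma, that carry a doxycycline-inducible transgene: the exon-1 fragment of huntingtin with 74 glutamines, tagged with GFP (GFP-mHtt-74Q). The 4 groups of 3 arrays were induced cells given 10 µM Compound 6, induced cells given 10 µM Compound 3, induced cells given DMSO, and non-induced cells given DMSO, over 48 h. Every group carried the transgene, and the 3 induced groups received 1 µg/ml doxycycline, so the fragment and doxycycline itself cannot be told apart. The series names the compounds as guanabenz analogues and gives no group of non-induced cells with a compound. The labels number the replicates without saying that they were separate cultures, so the p-values given here rest on a spread between arrays that may be technical alone.

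ATF4 is the transcription factor at the end of the integrated stress response: when the initiation factor eIF2 is phosphorylated, general translation falls while Atf4 mRNA is translated more. ATF4 then binds, often with C/EBP partners, to response elements at genes for amino acid synthesis, amino acid uptake, redox balance and growth control. Some of its targets, such as Ddit3 (CHOP) and Trib3, feed back on the pathway or take part in cell death under lasting stress. Guanabenz is known for its reported action on the stress-induced eIF2 phosphatase subunit.

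The array values are log2 summaries made by RMA, so a difference of 1 is a doubling, and all values below are on that scale. Array medians over all features lay between 4.61 and 4.70, and the correlation of any pair of arrays lay between 0.995 and 0.998, with 0 identical pairs. The median SD within a group lay between 0.0436 and 0.0513 for the members and between 0.0666 and 0.0945 for all features tested. Adrenal chromaffin markers were present: their mean level lay between 9.70 and 10.00 in Compound 6 cells, between 9.02 and 9.53 in Compound 3 cells, between 9.63 and 9.90 in induced DMSO cells, and between 10.39 and 10.59 in non-induced cells. Of 11 such markers measured, 9 fell and 1 rose with induction, where 9.06% of all features passed. Against non-induced cells 8 fell with Compound 6 (7.68% of all features passed), and 10 fell and 1 rose with Compound 3 (15.2%). Between Compound 6 and Compound 3, 0 of the 11 passed by limma, 10 had an unadjusted p under 0.05 (8.14% of all features) and their median difference was 0.53. Against induced DMSO, 0 passed with either compound, and 0 with Compound 6 and 7 with Compound 3 had an unadjusted p under 0.05 (5.66% and 7.29% of all features). The mean level of markers of fibroblasts, adrenal cortex, leukocytes, endothelium and Schwann cells lay between 4.38 and 5.30 on every array, and of the 14 such genes tested, 0 passed in limma and 0 had an unadjusted p under 0.05 in any of the 6 comparisons. RNA of a whole culture does not tell a change in the make-up of the cells from a change within each cell, and the part of the chromaffin markers' fall in the members' changes was not tested.

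The core of the C/EBP-ATF response element, TGATGNAA, was searched on both strands (TTNCATCA on the other) in the promoter windows of RefSeq, which run from 250 bases before to 50 after each start in the build GRCr8. Of the 34 members, 28 had a window in the table. The core was present in 8 of these 28 (28.6%), against 4.16% of all 27457 genes in the table. The members were chosen for their known place in this network, so the higher share is not a result of these arrays. The 8 matches are shown with their surrounding bases, read 5′ to 3′ on the strand of the gene with the core in capitals, because they are the sequence that this network is known for sharing. A match is a description of these letters and not a site shown to be bound.
Jdp2, chr6:110993559-110993598, 16 bases before the start: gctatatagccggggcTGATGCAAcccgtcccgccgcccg
Nupr1, chr1:190645933-190645972, 55 bases before the start: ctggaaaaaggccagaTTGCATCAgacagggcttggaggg
Trib3, chr3:161275531-161275570, 21 bases before the start: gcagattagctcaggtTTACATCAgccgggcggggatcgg
Chac1, chr3:126795948-126795987, 167 bases before the start: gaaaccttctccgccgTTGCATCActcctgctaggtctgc
Pycr1, chr10:106420920-106420959, 131 bases before the start: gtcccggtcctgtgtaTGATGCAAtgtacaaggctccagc
Got1, chr1:252330015-252330054, 167 bases before the start: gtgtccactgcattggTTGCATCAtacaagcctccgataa
Slc7a1, chr12:11664442-11664481, 30 bases before the start: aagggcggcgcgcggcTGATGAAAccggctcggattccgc
Slc1a4, chr14:98761774-98761812, 235 bases before the start: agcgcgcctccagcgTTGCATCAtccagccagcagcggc
Jdp2, Chac1 and Slc7a1 lie on the plus strand and the other 5 on the minus strand. Among the members that passed in any comparison given below, 2 of the 8 with a window held the core (Chac1 and Trib3), and among the members that passed in none it was 6 of 20.

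Induction of the huntingtin fragment was examined first, as the background on which the compounds were given. Ddit4 and Stc2 fell by more than 1.5-fold, Chac1 fell less, and Cth, Xpot and Phgdh rose, while the groups overlapped for Atf4 itself, Ddit3 and Asns. In all, 6 of the 33 members measured passed at an adjusted p of 0.05 (18.2%), against 9.06% of all 34422 features tested. The median SE of the difference was 0.049 for the members and 0.072 for all features. Shares over all features, here and below, are thus not matched to the members in precision. The part of this in the members' counts was not tested. Of the members 3 rose (Cth, Xpot, Phgdh), against 4.2% of all features, and 3 fell (Ddit4, Stc2, Chac1), against 4.86%. At an unadjusted p under 0.05 there were 11 members, against 21% of all features. The test was limma over all 12 arrays, with Benjamini-Hochberg adjustment over all features. The groups did not overlap for 11 members, against 22.7% of all features. The median difference was -0.017 over the members and 0.013 over all features, with 15 members higher and 18 lower, and that median took either sign under other scalings of the arrays. The 95% interval of the difference lay within a 1.5-fold change either way for 30 of the 33 members.

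**Figure D1:**
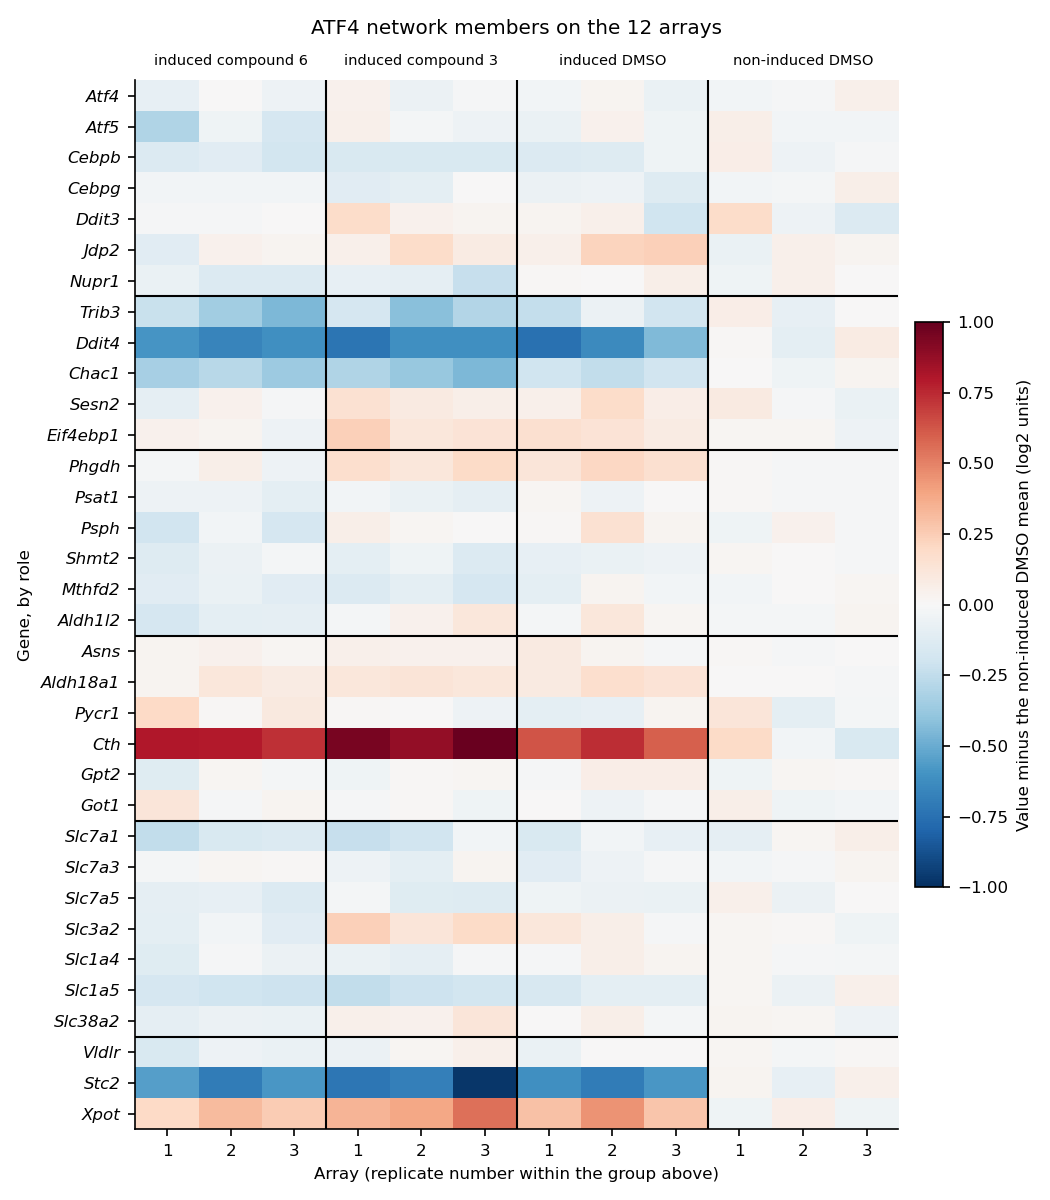
Value of each of the 34 members (rows, in blocks by role) on each of the 12 arrays (columns, by group), as the difference from the non-induced DMSO mean in log2 units (colour). Ddit4 and Stc2 are low and Cth and Xpot high on all 9 induced arrays, and most other rows are near 0.

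Among the 7 transcription factors and co-regulators, 0 passed with induction by limma and 2 had an unadjusted p under 0.05, with differences from -0.11 to 0.17. Atf4 measured 9.61, 9.69 and 9.64 in Compound 6 cells, 9.73, 9.63 and 9.68 in Compound 3 cells, 9.66, 9.72 and 9.62 in induced DMSO cells, and 9.66, 9.68 and 9.74 in non-induced cells. All 4 groups overlapped, and the difference with induction was -0.03 ± 0.0476 (SE; limma adjusted p = 0.805). Its 95% interval ran from -0.13 to 0.08. The protein, which is set mainly by translation, was not measured. Ddit3, the CHOP factor, measured 7.51, 7.51 and 7.52 in Compound 6 cells, 7.70, 7.56 and 7.55 in Compound 3 cells, 7.55, 7.57 and 7.32 in induced DMSO cells, and 7.70, 7.47 and 7.38 in non-induced cells. Its groups overlapped, except that each Compound 6 value lay under each Compound 3 value, and its difference with induction was -0.04 ± 0.0873 (SE; limma adjusted p = 0.86). The spread of the non-induced arrays (SD 0.165) was wider for Ddit3 than the median member's 0.0451.

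The other 5 regulators gave differences with induction of -0.02 for Atf5, a stress factor related to ATF4, -0.11 for Cebpb and -0.08 for Cebpg, both C/EBP partners, 0.17 for Jdp2, a repressor of the AP-1 family, and 0.02 for the stress-induced co-regulator Nupr1. None passed, and the lowest adjusted p was 0.169, that of Jdp2. Jdp2 measured 8.09, 8.26 and 8.28 in induced DMSO cells and 7.97, 8.09 and 8.07 in non-induced cells, so that the lowest induced value equalled the highest non-induced one. Nupr1 and Aldh18a1 each had another feature on the array, and neither of these other features passed in any comparison.

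**Figure D2:**
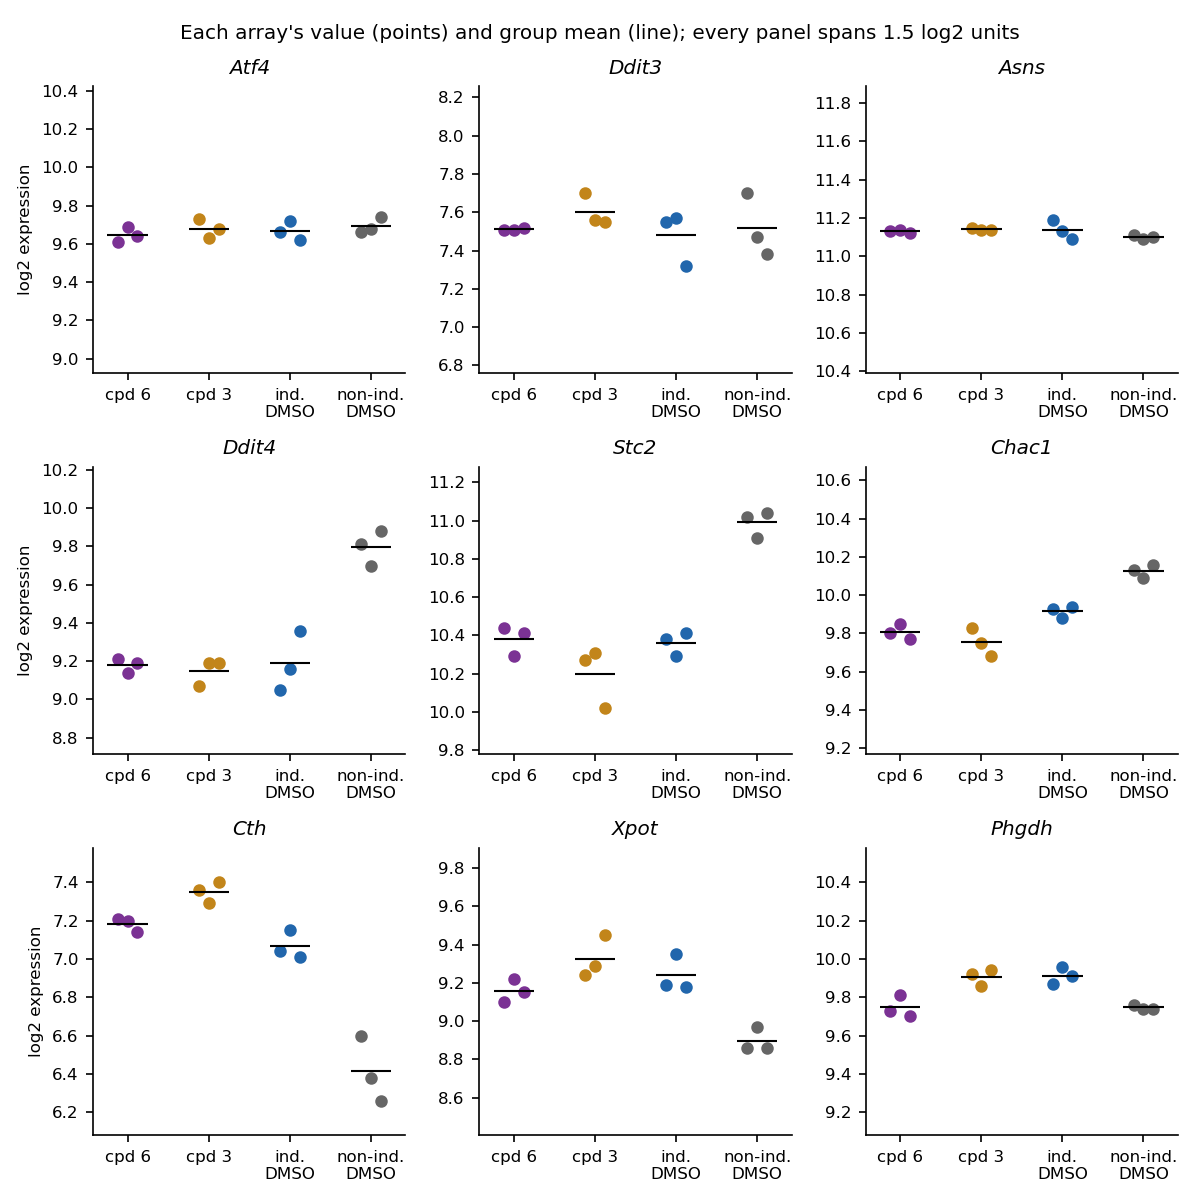
log2 expression of 9 members on each array (points) with the group mean (line), for cells given Compound 6, Compound 3 or DMSO after induction and for non-induced DMSO cells. Every panel spans the same range. Ddit4, Stc2 and Chac1 are lower and Cth and Xpot higher in each induced group than in non-induced cells, and the induced DMSO and non-induced points of Atf4, Ddit3 and Asns overlap.

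Of the 5 stress effectors, Ddit4 and Chac1 fell with induction. Ddit4, which encodes an inhibitor of mTOR signalling (REDD1), measured 9.21, 9.14 and 9.19 in Compound 6 cells, 9.07, 9.19 and 9.19 in Compound 3 cells, 9.05, 9.16 and 9.36 in induced DMSO cells, and 9.81, 9.70 and 9.88 in non-induced cells. All 9 induced values lay under all 3 non-induced ones. It fell by 0.61 ± 0.0767 with induction (SE), which is 1.52-fold (limma adjusted p = 0.00075). Stc2 encodes stanniocalcin 2, a secreted glycoprotein induced by endoplasmic reticulum stress. It measured 10.44, 10.29 and 10.41 in Compound 6 cells, 10.27, 10.31 and 10.02 in Compound 3 cells, 10.38, 10.29 and 10.41 in induced DMSO cells, and 11.02, 10.91 and 11.04 in non-induced cells. Again no induced value reached a non-induced one, and Stc2 fell by 0.63 ± 0.0773 (SE) with induction, or 1.55-fold (limma adjusted p = 0.000681).

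Chac1 encodes an enzyme that degrades glutathione and is a known target of ATF4. It measured 9.80, 9.85 and 9.77 in Compound 6 cells, 9.83, 9.75 and 9.68 in Compound 3 cells, 9.93, 9.88 and 9.94 in induced DMSO cells, and 10.13, 10.09 and 10.16 in non-induced cells. The non-induced arrays were the highest 3 and the arrays of both compounds lay below every induced DMSO array. It fell by 0.21 ± 0.049 with induction (SE; limma adjusted p = 0.02), a smaller change that no longer passed without non-induced array 3 (-0.19, adjusted p = 0.0879) or induced DMSO array 2 (-0.19, adjusted p = 0.0825). After quantile normalization its difference was -0.115 (adjusted p = 0.297). Trib3, a pseudokinase that binds ATF4 and holds it back, measured 9.19, 9.06 and 8.96 in Compound 6 cells, 9.24, 8.99 and 9.12 in Compound 3 cells, 9.17, 9.35 and 9.22 in induced DMSO cells, and 9.48, 9.33 and 9.41 in non-induced cells. The induced DMSO and non-induced arrays overlapped for Trib3, and their difference of -0.16 ± 0.0799 (SE) did not pass (limma adjusted p = 0.287). Sesn2, a leucine sensor that restrains mTOR signalling, and the translation repressor Eif4ebp1 had differences of 0.10 and 0.13 that did not pass.

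Of the members that passed in all 3 comparisons with non-induced cells, Xpot was not matched to a promoter window. The windows of the other 4, Ddit4, Stc2, Chac1 and Cth, are shown. Each runs 5′ to 3′ on the strand of its gene in GRCr8 and holds the start after its first 250 bases, with the response element core in capitals.
Ddit4, chr20:28436988-28437287, minus strand: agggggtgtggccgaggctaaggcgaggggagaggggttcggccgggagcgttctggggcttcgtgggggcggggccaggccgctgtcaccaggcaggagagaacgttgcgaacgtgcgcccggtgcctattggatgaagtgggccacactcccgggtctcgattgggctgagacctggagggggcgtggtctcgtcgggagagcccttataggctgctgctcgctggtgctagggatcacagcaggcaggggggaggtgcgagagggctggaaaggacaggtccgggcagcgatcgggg
Stc2, chr10:16755258-16755557, plus strand: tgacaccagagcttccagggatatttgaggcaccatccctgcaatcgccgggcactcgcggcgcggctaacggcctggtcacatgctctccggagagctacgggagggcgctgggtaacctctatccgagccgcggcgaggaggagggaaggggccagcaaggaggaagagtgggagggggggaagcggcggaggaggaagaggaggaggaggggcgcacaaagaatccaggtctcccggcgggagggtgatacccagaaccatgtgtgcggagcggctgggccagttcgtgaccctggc
Chac1, chr3:126795881-126796180, plus strand: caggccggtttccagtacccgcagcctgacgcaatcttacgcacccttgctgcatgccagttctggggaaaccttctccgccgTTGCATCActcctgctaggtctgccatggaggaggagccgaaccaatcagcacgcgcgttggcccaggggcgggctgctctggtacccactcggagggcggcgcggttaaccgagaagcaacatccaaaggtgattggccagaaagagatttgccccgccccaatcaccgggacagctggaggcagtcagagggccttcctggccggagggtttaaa
Cth, chr2:249661017-249661316, minus strand: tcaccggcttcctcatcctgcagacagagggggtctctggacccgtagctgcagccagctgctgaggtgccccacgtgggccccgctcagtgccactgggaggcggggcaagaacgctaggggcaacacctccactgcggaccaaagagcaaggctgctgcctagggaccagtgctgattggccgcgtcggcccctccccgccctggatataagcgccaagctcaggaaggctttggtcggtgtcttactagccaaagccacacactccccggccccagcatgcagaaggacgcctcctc
Of these 4 windows, that of Chac1 alone held the core, while the windows of Ddit4, Stc2 and Cth held none. The share of G and C was 68.3% for Ddit4, 66.0% for Stc2, 61.7% for Chac1 and 65.0% for Cth.

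The amino acid enzymes showed 2 increases with induction, of Cth and Phgdh, among 12 genes. Cth encodes cystathionine gamma-lyase, which makes cysteine and hydrogen sulphide. It measured 7.21, 7.20 and 7.14 in Compound 6 cells, 7.36, 7.29 and 7.40 in Compound 3 cells, 7.04, 7.15 and 7.01 in induced DMSO cells, and 6.60, 6.38 and 6.26 in non-induced cells. All induced values lay above all non-induced ones, and the rise with induction was 0.65 ± 0.0773 (SE), or 1.57-fold (limma adjusted p = 0.000587). The non-induced arrays were the most spread of any group for Cth (SD 0.172). Phgdh, the first enzyme of serine synthesis from glycolysis, measured 9.73, 9.81 and 9.70 in Compound 6 cells, 9.92, 9.86 and 9.94 in Compound 3 cells, 9.87, 9.96 and 9.91 in induced DMSO cells, and 9.76, 9.74 and 9.74 in non-induced cells. The induced DMSO and Compound 3 values lay above the non-induced ones without overlap, and the Compound 6 values spanned them. Its rise of 0.17 ± 0.046 (SE; limma adjusted p = 0.045) was close to the threshold and no longer passed when any 1 of 10 of the 12 arrays was left out (0.14 to 0.17, adjusted p from 0.0541 to 0.156), or with a replicate block (adjusted p = 0.0636).

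The other 5 serine and one-carbon enzymes did not pass. Their differences were -0.01 for Psat1 and 0.07 for Psph, the next steps of serine synthesis, -0.07 for Shmt2, -0.03 for Mthfd2 and 0.04 for Aldh1l2, which carry one-carbon units through the mitochondrial folate pathway. Asns, the asparagine synthetase that is a standard reporter of ATF4 activity, measured 11.13, 11.14 and 11.12 in Compound 6 cells, 11.15, 11.14 and 11.14 in Compound 3 cells, 11.19, 11.13 and 11.09 in induced DMSO cells, and 11.11, 11.09 and 11.10 in non-induced cells. The induced DMSO arrays spanned the non-induced ones, the difference was 0.04 ± 0.04 (SE; limma adjusted p = 0.663), and its 95% interval ran from -0.05 to 0.12. Of the proline enzymes, Aldh18a1 differed by 0.14 without overlap but did not pass (adjusted p = 0.0627), and Pycr1 differed by -0.05. The transaminases Gpt2 and Got1 differed by 0.05 and -0.02 and did not pass.

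None of the 6 amino acid transporters measured passed with induction by limma, and 1 had an unadjusted p under 0.05, with differences between -0.12 and 0.06. These were -0.08 for the cationic transporter Slc7a1, -0.05 for Slc7a5 and 0.06 for Slc3a2, the light and heavy chain of the large neutral amino acid transporter, and 0.03 for Slc1a4, -0.12 for Slc1a5 and 0.01 for Slc38a2, carriers of small neutral amino acids and glutamine. The groups did not overlap for Slc1a5, which did not pass (adjusted p = 0.125). Slc7a3 lay under the median of all features on every array, at 4.04, 4.08 and 4.07 in Compound 6 cells, 4.01, 3.96 and 4.09 in Compound 3 cells, 3.95, 4.01 and 4.05 in induced DMSO cells, and 4.03, 4.05 and 4.09 in non-induced cells. Its groups overlapped, and with no filter on low values its adjusted p for induction was 0.741. Among the remaining targets, the lipoprotein receptor Vldlr differed by -0.03 and did not pass. Xpot, the exporter of tRNA from the nucleus, measured 9.10, 9.22 and 9.15 in Compound 6 cells, 9.24, 9.29 and 9.45 in Compound 3 cells, 9.19, 9.35 and 9.18 in induced DMSO cells, and 8.86, 8.97 and 8.86 in non-induced cells. All induced values lay above the non-induced ones, and the rise with induction was 0.34 ± 0.0684 (SE; limma adjusted p = 0.00864).

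**Figure D3:**
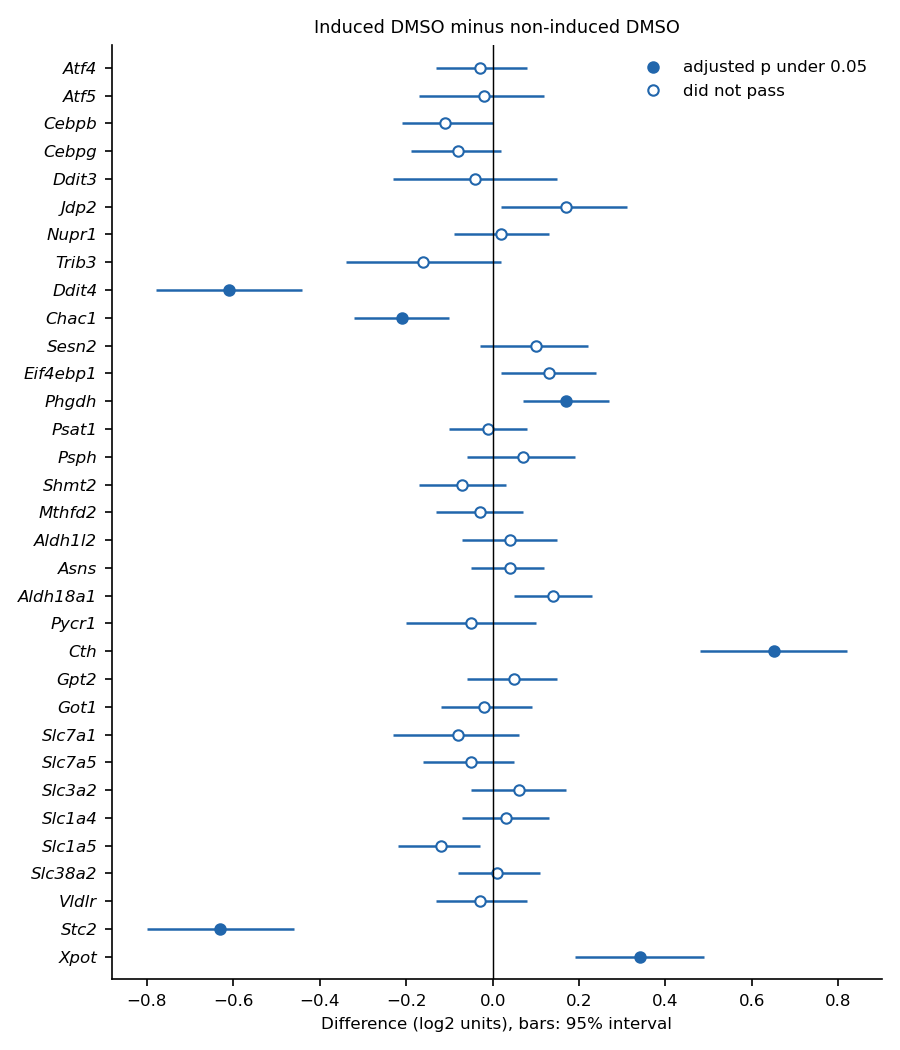
Difference between induced DMSO and non-induced DMSO cells (x axis, log2 units) for the 33 members measured, in the order of their roles, with 95% intervals from limma. Filled points passed at an adjusted p under 0.05: Ddit4, Chac1 and Stc2 to the left of 0, and Phgdh, Cth and Xpot to the right.

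Genes of the same pathways outside the 34 members were counted beside them, and 14 of the 111 measured passed with induction, against 9.06% of all features. At an unadjusted p under 0.05 there were 37, against 21% of all features. With induction, 0 of 18 cytosolic aminoacyl-tRNA synthetases and 0 of 23 further genes of amino acid and one-carbon metabolism passed by limma, with 4 and 3 at an unadjusted p under 0.05. The smallest p in each list was that of Kars1, the lysyl-tRNA synthetase (0.11, adjusted p = 0.108), and of Shmt1, the cytosolic serine hydroxymethyltransferase (0.13, adjusted p = 0.0525), and neither passed. Of 16 mitochondrial synthetases, 3 rose: Nars2 by 0.33, Fars2 by 0.27 and Mars2 by 0.27. Of 17 further amino acid transporters, Slc7a6 rose by 0.24, while Slc36a1 fell by 0.31, Slc16a10 fell by 0.25 and Slc7a8 fell by 0.19. Of 22 further genes of the stress network, 4 rose and 1 fell. The 4 with the smallest p were Klhl24, which rose by 0.45, the autophagy gene Map1lc3b, which rose by 0.25, Tbl2, which fell by 0.24, and the hormone gene Fgf21, which rose by 0.40, and the other was the autophagy receptor Sqstm1. Of 15 genes of the eIF2 pathway, 2 rose: Impact, an inhibitor of the kinase GCN2, by 0.33, and the eIF2B subunit Eif2b1 by 0.20.

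Compound 3 was compared with DMSO in induced cells to ask whether it altered the network on this background. None of the 33 members passed (0 of 33, against 0.0232% of all features), and 5 had an unadjusted p under 0.05, against 7.29% of all features. The groups did not overlap for 6 members, against 9.94% of all features. The differences ran from -0.16 to 0.28, with a median of -0.017 over the members and 0 over all features. Cth had the largest, at 0.28 ± 0.0773 (SE), and its 3 Compound 3 arrays lay above its 3 induced DMSO arrays (limma adjusted p = 0.371). Chac1 and Nupr1 were each lower by 0.16 without overlap and did not pass (adjusted p = 0.435 and 0.497), and Slc3a2 was higher by 0.13 without overlap (adjusted p = 0.59). The intervals of all 33 members lay within a 1.5-fold change, and those of 31 within 1.25-fold. For Atf4 the difference was 0.01, with an interval of -0.09 to 0.12, and for Ddit3 it was 0.12, with an interval of -0.07 to 0.31. Asns differed by 0.01 and Trib3 by -0.13, and neither passed.

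Compound 6 against DMSO in induced cells gave lower values for most members, none of which passed. The count was 0 of 33, against 0.00291% of all features, while 11 members had an unadjusted p under 0.05, against 5.66% of all features. Of the 33, 27 were lower and 6 higher, with a median difference of -0.073, against -0.007 over all features. Of all 34422 features, 18361 were lower and 15432 higher. Outside the members, 17 of the 18 cytosolic aminoacyl-tRNA synthetases were lower too (median -0.053), while 5 of the 16 mitochondrial ones were lower and 11 higher. The members' median stayed between -0.094 and -0.047 under all 22 other settings. The groups did not overlap for 13 members, against 8.04% of all features. The mean level of the 33 members was 9.51 to 9.54 on the Compound 6 arrays, 9.56 to 9.61 on the induced DMSO arrays and 9.58 to 9.62 on the non-induced arrays. Their median level overlapped between the groups, at 9.71 to 9.81, 9.80 to 9.91 and 9.76 to 9.88 in the same order. The SD of these array medians, pooled within groups, was 0.0538. The 95th percentile of all features was 10.18 to 10.27, 10.09 to 10.32 and 10.29 to 10.32 in the same groups. The part of such overall shifts in the members' differences was not tested.

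By role, all 5 stress effectors, all 6 serine and one-carbon enzymes and all 6 transporters measured had differences at or under 0 with Compound 6 against induced DMSO, while the 6 other amino acid enzymes divided evenly. Of the 7 transcription factors and co-regulators 2 were higher and 5 lower, and of the 3 other targets 1 was higher and 2 were lower. Psph, the last enzyme of serine synthesis, had the lowest difference, -0.19 ± 0.0561 (SE; limma adjusted p = 0.838). It measured 10.16, 10.32 and 10.18 in Compound 6 cells and 10.36, 10.50 and 10.38 in induced DMSO cells, which did not overlap. Phgdh differed by -0.17 ± 0.046 (SE; limma adjusted p = 0.832), with the arrays of Compound 6 all under those of induced DMSO, as its values given above show. Jdp2 and Trib3 each differed by -0.18, Aldh1l2 by -0.16, Atf5 by -0.15 and Slc3a2 by -0.13, and none of these passed. Pycr1 had the highest difference, 0.15, with overlapping groups and an adjusted p of 0.877. Atf4 differed by -0.02, with an interval of -0.12 to 0.08, and Ddit3 by 0.03, with an interval of -0.16 to 0.22. The intervals of all 33 members lay within a 1.5-fold change.

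The compounds were set against each other at the same dose and time, as 1 pair, with p-values adjusted over all 34422 features. None of the 33 members passed (0 of 33, against 0.0436% of all features), and 9 had an unadjusted p under 0.05, against 8.14% of all features. The groups did not overlap for 11 members, against 14% of all features. Slc3a2, the heavy chain that carries amino acid transporters to the membrane, had the smallest p. It measured 10.05, 10.12 and 10.04 in Compound 6 cells, 10.39, 10.27 and 10.34 in Compound 3 cells, 10.26, 10.21 and 10.14 in induced DMSO cells, and 10.17, 10.16 and 10.11 in non-induced cells. The Compound 6 arrays lay under all the Compound 3 arrays, and the difference of -0.26 ± 0.0498 (SE) had a 95% interval of -0.37 to -0.15 but did not pass (limma adjusted p = 0.124). With arrays weighted by their quality it passed (adjusted p = 0.0421), and it did so under no other setting. Phgdh, Eif4ebp1, Psph and Aldh1l2 were each lower with Compound 6 by 0.16, and Slc38a2 by 0.14, all without overlap and without passing, with adjusted p from 0.289 to 0.441. Cth differed by -0.17, with an interval of -0.34 to 0, and Stc2 by 0.18, with an interval of 0.01 to 0.35. For Atf4 the interval of the difference was -0.14 to 0.07 and for Ddit3 it was -0.28 to 0.10. All 33 intervals lay within a 1.5-fold difference between the compounds, and 30 within 1.25-fold.

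**Figure D4:**
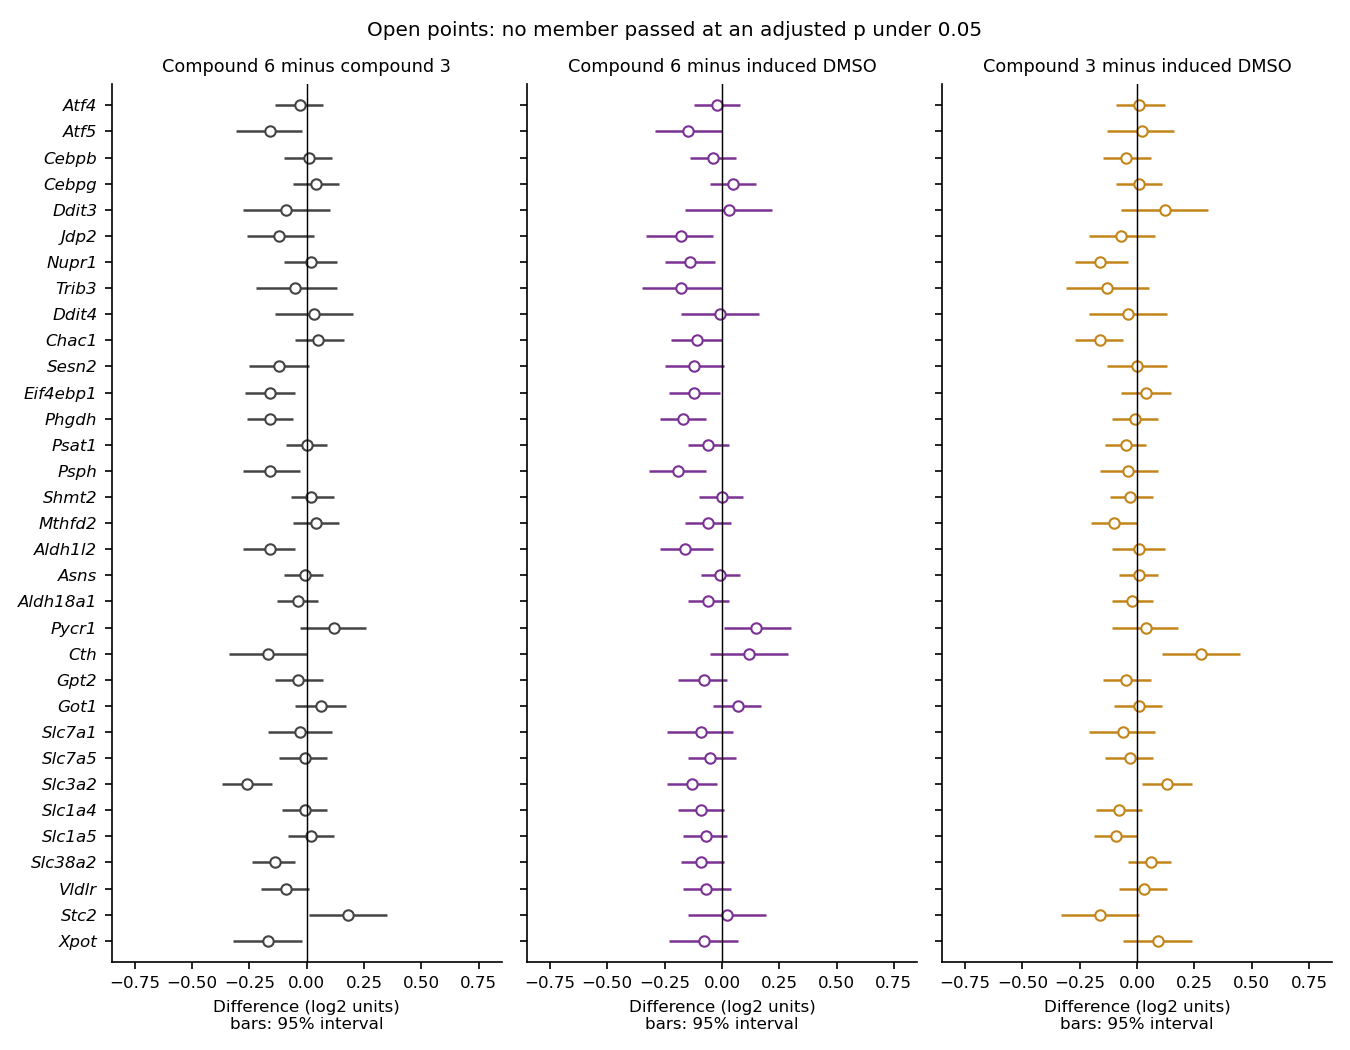
Differences in log2 units with 95% intervals for the 33 members measured: Compound 6 minus Compound 3 (left), Compound 6 minus induced DMSO (middle) and Compound 3 minus induced DMSO (right). All points are open because no member passed at an adjusted p under 0.05, and in the middle panel 27 of 33 points lie under 0.

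In the further lists of the pathway, 0 of 111 genes passed by limma in these 3 comparisons. At an unadjusted p under 0.05 there were 8 with Compound 6 and 13 with Compound 3 against induced DMSO, where the shares of all features were 5.66% and 7.29%. With Compound 6 against Compound 3 there were 22, against 8.14% of all features. With Compound 3 against induced DMSO, the gene with the smallest p was Rars1 among cytosolic synthetases (0.16), Yars2 among mitochondrial ones (0.15), Slc38a7 among transporters (0.17), Shmt1 among metabolic genes (0.23, adjusted p = 0.108), Crebrf in the stress network (0.23) and Eif2a in the eIF2 pathway (0.13). With Compound 6 against induced DMSO these were Farsa (-0.10), Hars2 (0.09), Slc16a10 (0.22), Mthfd1l (-0.14), the peptide hormone gene Adm2 (-0.51, adjusted p = 0.629) and Eif2b4 (-0.11). With Compound 6 against Compound 3 they were Nars1 (-0.14), Tars2 (0.08), Slc38a7 (-0.22), Shmt1 (-0.16), Map1lc3b (-0.19, adjusted p = 0.165) and Eif2b1 (-0.14). None of the genes named in this paragraph passed.

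Cells given each compound were also compared with non-induced cells, which shows where induction and compound together left each gene. These comparisons share the non-induced arrays with the comparison of induction. With Compound 6, 7 of 33 members passed (21.2%, against 7.68% of all features): Cth and Xpot rose, against 3.58% of all features that rose, and Ddit4, Stc2, Trib3, Chac1 and Slc1a5 fell, against 4.1% that fell. The groups did not overlap for 20 members, against 27.3% of all features. With Compound 3, 11 of 33 passed (33.3%, against 15.2% of all features): Cth, Xpot, Slc3a2, Eif4ebp1 and Phgdh rose, against 8.34% of all features, and Stc2, Ddit4, Chac1, Trib3, Slc1a5 and Cebpb fell, against 6.82%. Here the groups did not overlap for 18 members, against 30.3% of all features. Cth, Xpot, Ddit4, Stc2 and Chac1 passed in all 3 comparisons with non-induced cells, 2 upward and 3 downward, and 22 of the 33 members passed in none of the 6 comparisons. The shares of all features that did either were not counted, so these counts cannot be set against a background. In a single test for any difference among the 4 groups, 8 members passed, against 10.3% of all features.

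Side by side, the difference of Cth from non-induced cells was 0.77 with Compound 6, 0.94 with Compound 3 and 0.65 with DMSO. That of Stc2 was -0.61, -0.79 and -0.63 in the same order, that of Ddit4 was -0.62, -0.65 and -0.61, that of Chac1 was -0.32, -0.37 and -0.21, and that of Xpot was 0.26, 0.43 and 0.34. The adjusted p ran from 0.000354 for Cth to 0.0407 for Xpot with Compound 6, and from 2.78e-05 for Cth to 0.00137 for Xpot with Compound 3, by limma. For Trib3 the difference was -0.34 with Compound 6 (adjusted p = 0.0254), -0.29 with Compound 3 (adjusted p = 0.0303) and -0.16 with DMSO, which did not pass. In the direct comparisons between compound and DMSO in induced cells, Trib3 did not pass.

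Slc1a5, the main glutamine carrier of many cultured cells, measured 10.01, 9.98 and 9.97 in Compound 6 cells, 9.93, 9.97 and 10.00 in Compound 3 cells, 10.02, 10.08 and 10.08 in induced DMSO cells, and 10.20, 10.12 and 10.23 in non-induced cells. All induced arrays lay under all non-induced ones, and it fell by 0.20 with Compound 6 (limma adjusted p = 0.0209) and by 0.22 with Compound 3 (limma adjusted p = 0.00642). Eif4ebp1 measured 8.78, 8.77 and 8.69 in Compound 6 cells, 8.98, 8.85 and 8.88 in Compound 3 cells, 8.90, 8.88 and 8.82 in induced DMSO cells, and 8.76, 8.76 and 8.69 in non-induced cells. The Compound 6 values overlapped with the non-induced ones, and the rise with Compound 3 was 0.17 (limma adjusted p = 0.0448). Slc3a2 rose by 0.19 with Compound 3 (limma adjusted p = 0.0258), and its difference with Compound 6 was -0.08, which did not pass.

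Cebpb measured 8.07, 8.10 and 8.03 in Compound 6 cells, 8.06 on each of the 3 arrays of Compound 3 cells, 8.07, 8.08 and 8.17 in induced DMSO cells, and 8.28, 8.16 and 8.20 in non-induced cells. It fell by 0.15 with Compound 3 (limma adjusted p = 0.0494, and 0.0693 with a replicate block, which ended the call) and differed by -0.15 with Compound 6, which did not pass (adjusted p = 0.0909). Phgdh rose by 0.16 with Compound 3 (limma adjusted p = 0.0369, and 0.0528 with a replicate block, which ended the call) and was at 0 with Compound 6, with an interval of -0.10 to 0.10.

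**Figure D5:**
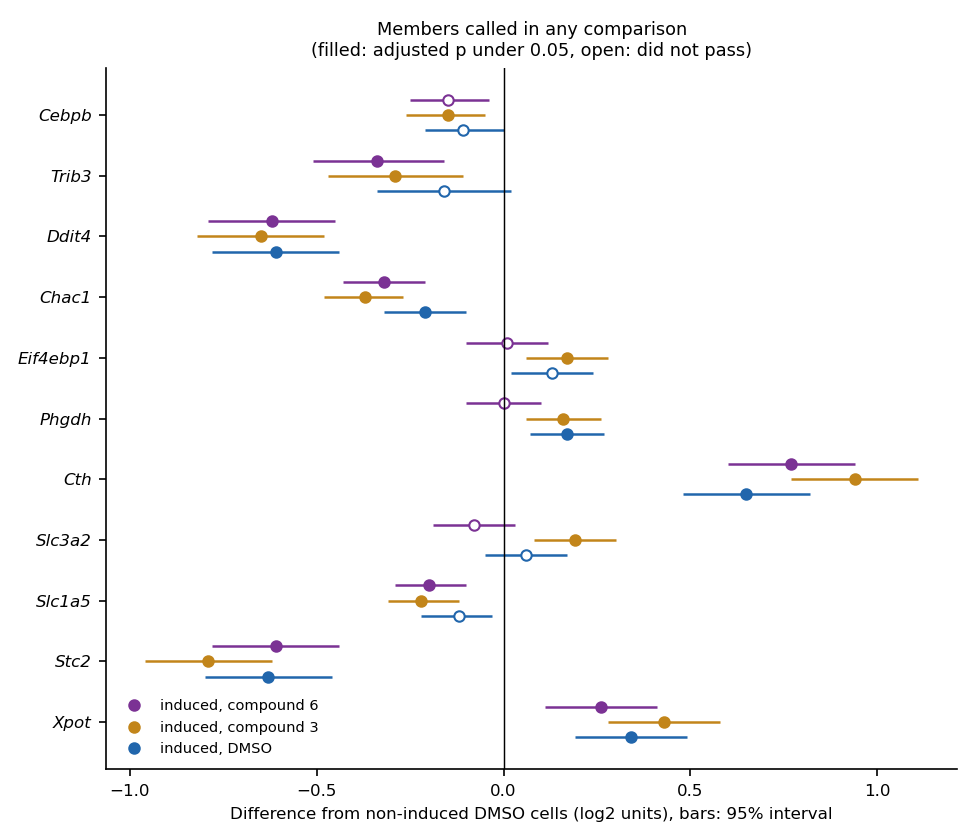
Difference from non-induced DMSO cells (x axis, log2 units) with 95% intervals for the 11 members that passed in any comparison, for induced cells given Compound 6, Compound 3 or DMSO. Filled points passed at an adjusted p under 0.05. Cth, Xpot, Ddit4, Chac1 and Stc2 are filled in all 3 groups, and the 3 comparisons share the non-induced arrays.

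Of the 24 calls in these 3 comparisons, 13 passed under all 22 other settings and 11 did not. The calls of Ddit4, Stc2 and Cth passed in all 3 comparisons under every one of these settings, as did those of Chac1 with either compound and of Xpot with Compound 3 and with DMSO. Leaving out 1 array ended the call of Cebpb for 11 of the 12 arrays (-0.18 to -0.12, adjusted p up to 0.149), of Eif4ebp1 for 10 (0.13 to 0.19, up to 0.168) and of Phgdh with Compound 3 for 6 (0.14 to 0.17, up to 0.128). The call of Xpot with Compound 6 ended without any 1 of the Compound 6 or non-induced arrays or without Compound 3 array 2 (0.23 to 0.30, up to 0.158). That of Slc3a2 with Compound 3 ended without Compound 3 array 1 or 3 or non-induced array 2 or 3 (0.16 to 0.19, up to 0.104). That of Slc1a5 with Compound 6 ended without Compound 6 array 2 or 3 or non-induced array 1 or 3 (-0.19 to -0.17, up to 0.0985), and was at -0.122 after quantile normalization (adjusted p = 0.338). That of Trib3 ended without array 2 or 3 of the compound or non-induced array 1 or 3, with Compound 6 (-0.34 to -0.28, up to 0.10) and with Compound 3 (-0.29 to -0.23, up to 0.117). The call of Slc1a5 with Compound 3 ended after quantile normalization (adjusted p = 0.149) and cyclic loess (adjusted p = 0.0539). With no filter, all 11 ended but that one. Median scaling ended those of Phgdh with induction, of Phgdh, Eif4ebp1 and Slc3a2 with Compound 3, and of Xpot with Compound 6. Cyclic loess and a fit of the 2 groups alone each ended those of Chac1 and Phgdh with induction and of Slc1a5 with Compound 6. Both ended those of Phgdh and Eif4ebp1 with Compound 3, and the 2-group fit those of Cebpb and Slc3a2. Quantile normalization ended that of Phgdh with Compound 3.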

How the data were processed

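Total RNA (250 ng per sample) from 12 PC12 samples was hybridised to the Affymetrix Rat Transcriptome Array 1.0. The deposited values are log2 expression per transcript cluster, made with Affymetrix Expression Console and RMA per the submitters' processing notes. Versions and options are not given in the sources used here. Of 70580 rows, 1738 were controls. The 34422 rows whose 12-array mean reached the median of the others (4.63) were tested with limma 3.58.1 in R 4.3.3, as 4 group means over all arrays, with Benjamini-Hochberg adjustment and a threshold of 0.05. Symbols came from GEO's platform annotation, in which 23446 rows had 1 symbol, 505 several and 44891 none. All 34 member symbols matched RefSeq. The members, the further lists and the named genes (members called in any comparison, Atf4, Ddit3, Trib3, Chac1, Asns, and up to 4 called per further list, or the smallest p) were chosen with earlier results of these data known. The number of arrays limits the precision. Alternatives were other filters, scalings, weights, fits and left-out arrays. The code was tested on simulated data. Figures used matplotlib 3.10.9.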

Additional observations from a re-analysis of the deposited data

How the results depend on the processing

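Over the 33 members, 6 comparisons and 22 alternatives, 4239 of 4350 results stayed on their side of the threshold, 97 lost and 14 gained a call, and 0 called values turned sign, while 147 uncalled ones did; the stricter filter left out 1 member. The count of members called with Compound 6 against Compound 3 was 1 with array weights. With Compound 3 against non-induced cells it was 6 with no filter, 7 with only the 2 groups in the fit, and 6 to 11 when 1 array was left out (6 without Compound 3 array 3 or non-induced array 3). With Compound 6 against non-induced cells it was 4 with no filter and 4 to 7 with 1 array left out (4 without Compound 6 array 2 or 3 or non-induced array 1 or 3). Among the 4 groups it was 5 with no filter, 13 with array weights and 5 to 9 with 1 array left out. With induction it was 4 to 8. Without a filter the adjustment covers more features, and a fit of 2 groups holds fewer arrays. The cause of the differing counts was not tested. The count of all features called with induction, 3120, ran from 1815 (without induced DMSO array 2) to 5165 (without array 1) and from 1573 to 5515 under other settings. The like counts over all settings ran from 2 to 26 (8 in the fit as described) with Compound 3 and from 0 to 3 (1) with Compound 6 against induced DMSO, from 1 to 133 (15) between the compounds, from 1210 to 4274 (2644) with Compound 6 against non-induced cells, and from 1874 to 5761 (3540) among the 4 groups. Of the features called with induction, 46.4% rose in the fit as described and 30.9% after median scaling. Over all settings this share ran from 29.7% (only the 2 groups in the fit) to 54% (array weights). The members' median difference was 0.09 with induction and -0.013 with Compound 6 against non-induced cells after quantile normalization. The labels do not say that replicate numbers pair the samples. For this check the group mean of each feature was subtracted, and the deviations left were correlated between arrays of different groups. Same-numbered arrays then correlated at -0.17 to 0.45, with 10 of 18 over 0.1. Arrays with different numbers correlated at -0.46 to 0.42, with 6 of 36 over 0.1. The best match had the same number in 20 of 36 cases. Deviations within a group cancel out, so these correlations are not independent of each other. All 3 same-numbered pairs were over 0.1 between Compound 3 and non-induced cells (0.41, 0.26 and 0.11) and in no other comparison. With a replicate block, 6 members were called with induction (Jdp2 gained, adjusted p = 0.0455; Phgdh lost, 0.0636), 9 with Compound 3 (Cebpb and Phgdh lost) and 7 with Compound 6 against non-induced cells, where the block changed no call.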
